A study of Mus musculus and Rattus norvegicus with 18 samples.

Results

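Aqp8 and 4 other aquaporins, Aqp1, Aqp4, Aqp7 and Aqp11, were followed through mouse heart RNA, mouse heart ribosome footprints and RNA of a rat cell line, with and without the tRNA methyltransferase Mettl1. These 5 symbols are among the 55487 gene IDs of the heart RNA table and were chosen by name. Aqp8 was chosen because it was higher in knockout hearts. Its heart values are therefore given as a description, without a test. The other 4 were tested in fits across all genes.

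One set of hearts came from Mettl1 conditional knockout mice (cKO, labelled M1cKO) and the other from mice labelled Ctrl. All were from C57BL/6 mice at 4 weeks of age, with 2 RNA-seq and 2 Ribo-seq libraries for each genotype. The driver of the deletion, the alleles carried by the controls and any pooling of animals are not given in the sources used here. H9C2 is a myoblast line from embryonic rat heart; 3 libraries came from an edited line in which a CRISPR-Cas9 frameshift ended Mettl1 protein (Mettl1-null) and 3 from cells with normal Mettl1 (WT). The null cells are described as a single line, so an effect of the edit and a property of that line cannot be told apart. Nothing in the labels says that replicates came from separate animals or cultures, and p-values measure the spread between these libraries only.

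Aquaporins are membrane channels that let water cross cell membranes along an osmotic gradient. Some members, the aquaglyceroporins, also pass glycerol, and others pass ammonia or hydrogen peroxide. In the heart, Aqp1 is known from the endothelium of capillaries, Aqp4 is a water channel best known from astrocytes that is anchored by the dystrophin complex, and Aqp7 carries glycerol, which heart muscle can use as fuel. Aqp8 is best known from liver, pancreas, colon and testis, and passes water, ammonia and hydrogen peroxide. Aqp11 is a distant member of the family found in membranes inside the cell.

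Heart RNA libraries held 15.1 to 16.8 M counts (M, counts in units of 1e+06), footprint libraries 25.2 to 39.7 M and H9C2 libraries 90.3 to 94.2 M. Levels are CPM, counts per M counts of the library after scaling by TMM factors, and a call is an adjusted p under 0.05. Mettl1 itself had 2.49 and 2.52 CPM of RNA in cKO hearts, against 4.31 and 3.76 CPM in Ctrl hearts, a log2 fold change of -0.69 that missed the threshold (adjusted p = 0.0664). Mettl1 footprints were at 2.22 and 2.22 CPM in cKO hearts and 6.28 and 6.62 CPM in Ctrl hearts, and this fall passed the test (adjusted p = 0.000101). In H9C2, Mettl1 RNA fell by 1.93 on the log2 scale in null cells (adjusted p = 1.1e-05). Cardiomyocyte markers (10 genes, led by Myh6, Atp2a2 and Actc1) summed to 61122 and 61678 CPM in cKO heart RNA, against 69091 and 68814 CPM in Ctrl heart RNA. In H9C2 the cardiac markers Ryr2, Myl2 and Myl3 were at 0 in all 6 libraries. The sum over the 9 cardiomyocyte markers in that table was 429 to 431 CPM in null cells and 396 to 446 CPM in WT cells.

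Aqp8 (ENSMUSG00000030762) lies at chr7:123462294-123468003 of GRCm38.p6. Its RNA was well above the floor of 3 counts in cKO hearts and close to it in Ctrl hearts. The cKO libraries held 152 and 153 counts, or 8.79 and 9.89 CPM, against 7 and 5 counts, or 0.451 and 0.318 CPM, in the Ctrl libraries. Both cKO values stood far above both Ctrl values, and the replicates within a genotype lay close together. The fitted difference was 4.57 on the log2 scale (SE 0.29), or 23.8-fold, the 11th largest rise among 14088 genes tested. The Ctrl side of that ratio rests on 12 counts over both libraries. In bulk tissue, a difference in the number of cells of a type and one in RNA per cell cannot be told apart.

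Footprints on the Aqp8 coding frame of 260 codons numbered 803 and 689 in cKO hearts, against 14 and 30 in Ctrl hearts. In CPM this was 19.97 ± 0.114 in cKO hearts and 0.746 ± 0.232 in Ctrl hearts (SD, n = 2 each). The cKO and Ctrl libraries did not overlap, as for 55.9% of genes in footprints, and the fitted difference was 4.69 (SE 0.20). Because Aqp8 was chosen for its rise in knockout hearts, these values describe that rise and do not test it. The difference in footprints relative to RNA, which measures translational efficiency, was 0.09 (SE 0.55). It was -0.42 without Ctrl library 1 and 0.73 without Ctrl library 2, so its sign depended on which Ctrl library was used.

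**Figure D1:**
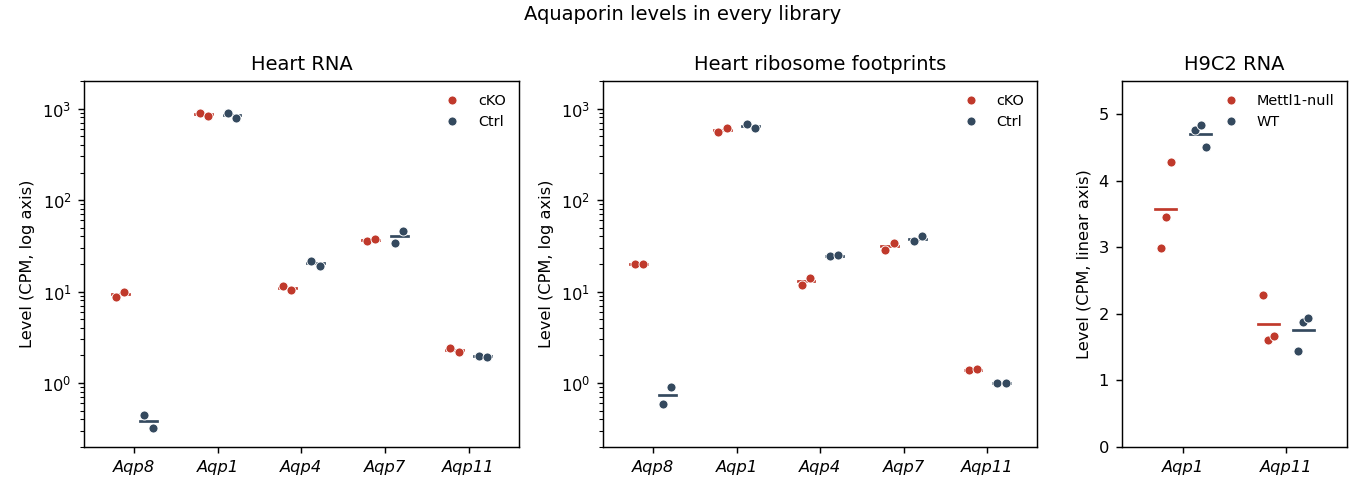
Levels of the aquaporins in every library, in CPM (log axes for heart RNA and footprints, linear axis for H9C2 RNA); points are libraries, horizontal bars are group means, and knockout or null libraries stand left of Ctrl or WT. Aqp8 stands between 8.79 and 20.05 CPM in the cKO libraries and between 0.318 and 0.911 CPM in the Ctrl libraries, Aqp4 is lower in cKO, and heights of different genes are not comparable because CPM is not divided by length.

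A second, short Aqp8 frame of 24 codons was also listed in the footprint table. It starts 23 bases upstream of the start of the main frame, is read in another frame and overlaps the beginning of the main one, so a footprint near there could be assigned to either. It held 6 and 13 footprints in cKO hearts and 0 and 0 in Ctrl hearts. In cKO hearts that was 1.26% of all footprints on the gene (95% Wilson interval 0.806 to 1.96%). In Ctrl hearts it was 0 of 44, for which the upper Wilson bound is 8.03%, so a share like that of cKO hearts was not detectable there. These intervals cover counting error only.

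The 250 bases before the annotated Aqp8 start are shown because Aqp8 is the aquaporin with the large rise, and those before the Aqp1 start because Aqp1 has the highest footprint density and did not pass the test. Both are RefSeq sequence of GRCm38.p6, plus strand, at chr7:123462044-123462293 and chr6:55336049-55336298. Capitals mark the E-box CACGTG, the only match found in either window.
Aqp8: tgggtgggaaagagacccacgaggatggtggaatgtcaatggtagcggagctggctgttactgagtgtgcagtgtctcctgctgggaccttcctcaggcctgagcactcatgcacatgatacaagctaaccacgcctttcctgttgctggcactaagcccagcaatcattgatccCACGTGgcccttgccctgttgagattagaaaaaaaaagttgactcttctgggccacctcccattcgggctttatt
Aqp1: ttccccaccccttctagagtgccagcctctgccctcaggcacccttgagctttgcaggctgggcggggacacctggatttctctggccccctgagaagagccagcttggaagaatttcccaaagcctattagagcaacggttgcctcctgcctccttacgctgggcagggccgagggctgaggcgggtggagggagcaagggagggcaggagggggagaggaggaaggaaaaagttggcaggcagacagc
The letters searched, on both strands, were the E-box CACGTG, the AP-1 site TGANTCA, the CRE TGACGTCA, the C/EBP-ATF element TGATGCAA, the antioxidant response element TGACNNNGC, the heat shock element GAANNTTC, the TATA box TATAAA, and the MEF2 and p53 half-site motifs. The motif list was drawn up after the Aqp8 sequence had been seen. The Aqp8 E-box lies 75 to 70 bases before the start, and 6.02% of 32841 promoter windows of the same length hold one. Of the members, 4 of 5 were in the promoter table, and the only other match was a heat shock element 232 to 225 bases before the Aqp7 start, a motif present in 6.7% of windows. A match is a description of letters in a window, not a site.

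Aqp1 (chr6:55336299-55348555) carried far more footprints per length than the other aquaporins (densities per kilobase are given further on), and it passed the test in neither assay. RNA levels were 903 and 820 CPM in cKO hearts, against 898 and 789 CPM in Ctrl hearts, and the groups overlapped. The log2 fold change was 0.03 (SE 0.06, adjusted p = 0.818). Footprints on its frame of 269 codons were at 551 and 613 CPM in cKO hearts and 681 and 614 CPM in Ctrl hearts. Both cKO libraries lay below both Ctrl libraries, the nearest pair at 613 and 614 CPM. In footprints 55.9% of genes had groups that did not overlap. The log2 fold change of -0.15 missed the threshold (SE 0.08, adjusted p = 0.245). The 12 endothelial markers summed to 999 and 1172 CPM in cKO heart footprints, against 1333 and 1258 CPM in Ctrl heart footprints. In RNA, where the Aqp1 groups overlapped, they summed to 2342 and 2330 CPM in cKO hearts, against 2574 and 2628 CPM in Ctrl hearts. In RNA 3 of the 12 fell and none rose, where 6.26% of all genes fell. In footprints 1 of 11 tested fell and none rose, where 7.33% of all genes fell. The part of these markers in the Aqp1 values was not tested. Erythroid markers, another Aqp1-bearing lineage, summed to 2496 and 1595 CPM in cKO heart RNA and 1457 and 1592 CPM in Ctrl heart RNA. Of 7 tested in RNA 3 rose, where 8.16% of all genes rose. A further Aqp1 frame of 102 codons, downstream of the main one, held 4 and 11 footprints in cKO hearts and 15 and 3 in Ctrl hearts, overlapping.

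Aqp4 (chr18:15389394-15410982) was the one tested member that fell. Its RNA was at 11.5 and 10.3 CPM in cKO hearts, against 21.6 and 19.2 CPM in Ctrl hearts, and no cKO library reached a Ctrl library. The log2 fold change was -0.90 (SE 0.12, adjusted p = 0.000124), or 1.87-fold lower in cKO. Aqp4 footprints were at 11.9 and 14.0 CPM in cKO hearts and 24.3 and 24.8 CPM in Ctrl hearts. They fell by 0.93 on the log2 scale (SE 0.12, adjusted p = 6.66e-05). Across the alternative settings and with each library left out, the RNA change ranged from -0.99 to -0.81 and the footprint change from -1.05 to -0.82, and both stayed past the threshold. The Aqp4 gene overlaps the non-coding gene A830021F12Rik, and no source used here states the strand setting of the RNA counting, so RNA reads of that pair could be shared. Of 10 cardiomyocyte markers, 6 passed the test as lower in cKO heart RNA, where 6.26% of all genes fell, and none as higher. The median log2 fold change of the 10 was -0.17, and their part in the Aqp4 values was not tested.

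Aqp7 (chr4:41033074-41048237) was at 35.7 and 37.5 CPM of RNA in cKO hearts, against 34.2 and 46.3 CPM in Ctrl hearts. The groups overlapped, because Ctrl library 1 was below both cKO libraries and Ctrl library 2 above them. The log2 fold change was -0.14 (SE 0.11, adjusted p = 0.478). It became -0.34 (adjusted p = 0.0185) without Ctrl library 1 and 0.09 without Ctrl library 2. Footprints were at 28.3 and 34.1 CPM in cKO hearts and 35.2 and 40.1 CPM in Ctrl hearts. That difference of -0.28 (SE 0.11) missed the threshold (adjusted p = 0.110), although the groups did not overlap, as for 55.9% of genes in footprints. Adipocyte markers, the usual companions of Aqp7, summed to only 13.0 and 7.05 CPM in cKO heart RNA and 7.59 and 13.0 CPM in Ctrl heart RNA, with overlapping groups.

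Aqp11 (chr7:97726379-97738247) was scarce. Its RNA was at 2.43 and 2.20 CPM in cKO hearts, against 1.995 and 1.91 CPM in Ctrl hearts (log2 fold change 0.25, SE 0.28, adjusted p = 0.638). Footprints were at 1.37 and 1.41 CPM in cKO hearts and 0.998 and 1.002 CPM in Ctrl hearts (0.48, SE 0.36, adjusted p = 0.425). The cKO libraries were the higher ones in both assays, but with 104 footprints in cKO hearts and 57 in Ctrl hearts a change of this size was not detectable.

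Among the 4 tested members, Aqp4 was the only one called in RNA, where 14.4% of 14088 genes were called (8.16% rose and 6.26% fell). It was also the only one called in footprints, where 16.4% of 13514 genes were called (9.11% rose and 7.33% fell). For translational efficiency, edgeR called 0 of the 4, and 0 had an unadjusted p under 0.05, with 0.126% of 12662 genes called (0.0711% rose and 0.0553% fell). DESeq2 gave an adjusted p for 2 of them, Aqp1 and Aqp7, and called 0. The log2 differences in translational efficiency were -0.20 for Aqp1 (SE 0.11), -0.04 for Aqp4 (SE 0.17), -0.15 for Aqp7 (SE 0.18) and 0.21 for Aqp11 (SE 0.43). Groups that do not overlap were common, at 55.0% of genes in RNA and 55.9% in footprints.

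**Figure D2:**
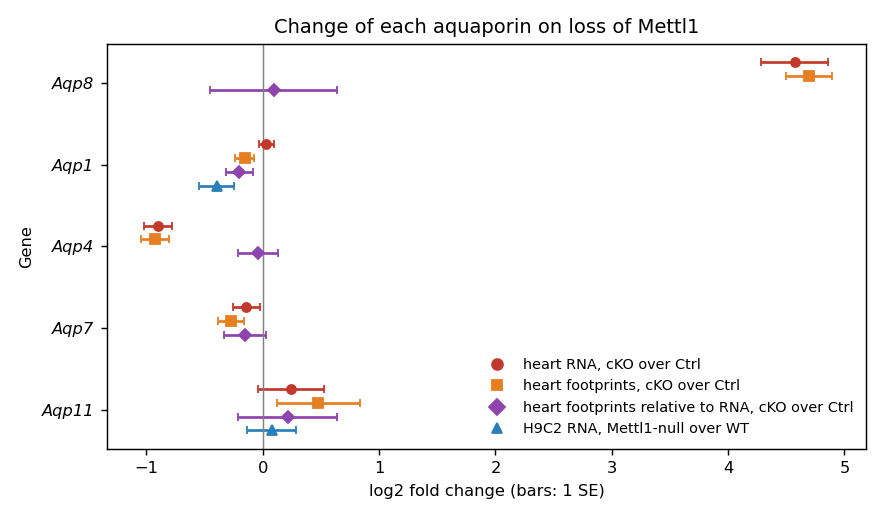
Log2 fold changes of the 5 aquaporins with bars of 1 SE, cKO over Ctrl in heart and Mettl1-null over WT in H9C2; genes at or near 0 in H9C2 have no H9C2 point. Aqp8 stands at 4.57 in RNA and 4.69 in footprints, Aqp4 at -0.90 and -0.93, and the others within 0.5 of 0.

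Footprints per kilobase of coding frame allow levels to be compared between genes. In cKO hearts the order was Aqp1 at 721 ± 54.5 CPM per kb, Aqp7 at 34.3 ± 4.45, Aqp8 at 25.6 ± 0.146, Aqp4 at 13.4 ± 1.504 and Aqp11 at 1.71 ± 0.0358 (SD, n = 2). In Ctrl hearts it was Aqp1 at 802 ± 58.7 CPM per kb, Aqp7 at 41.4 ± 3.82, Aqp4 at 25.3 ± 0.350, Aqp11 at 1.23 ± 0.00342 and Aqp8 at 0.957 ± 0.298. Aqp8 was thus the third in cKO hearts and the fifth in Ctrl hearts, where its gap to Aqp11 was smaller than its own SD. Every other pair of neighbours in either order differed by more than both SDs. The share of Aqp8 in the summed footprint density of the 5 genes was 3.22% in cKO hearts and 0.110% in Ctrl hearts, and that of Aqp1 was 90.6% in cKO hearts and 92.1% in Ctrl hearts.

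**Figure D3:**
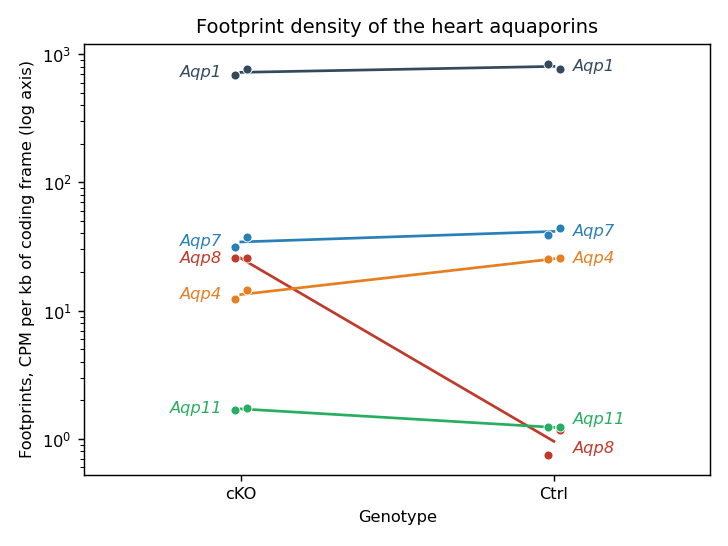
Footprint density of each aquaporin in CPM per kilobase of coding frame (log axis); points are libraries and lines join the genotype means, cKO left and Ctrl right. The Aqp8 line runs between 25.6 in cKO and 0.957 in Ctrl and crosses those of Aqp4 and Aqp11, while Aqp1 stays on top.

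The remaining aquaporins were close to absent from heart. Of the 7 in the RNA table, none passed the filter on low counts. Aqp9, a glycerol channel of liver, had 1 and 3 counts in cKO hearts and 2 and 7 in Ctrl hearts. Aqp6 had 4 and 4 counts in cKO hearts and 0 and 1 in Ctrl hearts, too few to read. Mip, Aqp3 and Aqp12 were at 0 throughout.

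Markers of other tissues, among them those best known for Aqp8, were measured in the same libraries. Pancreatic acinar markers summed to 0.694 and 1.81 CPM in cKO heart RNA, against 0.708 and 0.191 CPM in Ctrl heart RNA. Of the 11, 6 were at 0 in all 4 libraries (Prss1, Try4, Try5, Cpb1, Cel and Clps). Cpa1 averaged 0.151 ± 0.0313 CPM in cKO heart RNA and 0.257 ± 0.183 CPM in Ctrl heart RNA (SD, n = 2 each). Only 2 of the 11, Cpa1 and Cela1, were listed for footprints. The acinar gene Cela1, named after its values were seen, averaged 0.716 CPM of footprints in cKO hearts and 0.0304 CPM in Ctrl hearts. That Ctrl mean lay below the floor of 3 counts (0.0911 to 0.125 CPM), so the footprint values are given without a test. In heart RNA Cela1 averaged 1.04 ± 0.729 CPM in cKO hearts and 0.161 ± 0.137 CPM in Ctrl hearts (SD, n = 2 each), and did not pass the filter. Hepatocyte markers summed to 35.3 and 29.4 CPM in cKO heart RNA and 31.1 and 33.6 CPM in Ctrl heart RNA, overlapping. Ahsg, with means of 22.4 CPM in cKO hearts and 21.2 CPM in Ctrl hearts, and Cyp2e1, with 9.50 CPM and 10.7 CPM, led this sum. Alb and Apoa1 held 1 count each over all 4 libraries, and Serpina1a and Fgb were at 0. Intestinal markers summed to 9.54 and 11.96 CPM in cKO heart RNA, against 16.4 and 14.0 CPM in Ctrl heart RNA, with Cdx1 and Cdx2 at 0. Most of that sum was 1 gene, Lgals4, with a mean of 9.87 CPM in cKO hearts and 14.2 CPM in Ctrl hearts, while Vil1 averaged 0.216 CPM in cKO hearts and 0.128 CPM in Ctrl hearts. Germ cell markers were at most 0.318 CPM in any RNA library, with Prm1, Prm2, Tnp1 and Tnp2 at 0, and lung epithelial markers at most 0.322 CPM. The summed skeletal muscle markers were low but higher in cKO heart RNA, at 6.54 and 6.08 CPM, against 3.41 and 3.56 CPM in Ctrl heart RNA. The genes differed: Mylpf averaged 2.62 CPM in cKO hearts and 0.575 CPM in Ctrl hearts, and Tnni2 2.46 CPM and 2.27 CPM. Tnnt3 averaged 0.551 CPM in cKO hearts and 0.256 CPM in Ctrl hearts, and Pvalb 0.522 CPM and 0.257 CPM. Myh1, Myh2, Myh4 and Myod1 held at most 3 counts each over all 4 libraries, too few for a direction to be read. Of 2 tested in RNA 1 rose and none fell, where 8.16% of all genes rose. Of 6 tested in footprints 2 rose and none fell, where 9.11% of all genes rose. The part of Cela1 and of the skeletal muscle markers in the Aqp8 values was not tested.

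Within 1000 kb of Aqp8, 5 genes were tested in heart RNA, and their log2 fold changes ran from -0.33 to 0.26. The nearest of them, Lcmt1, a methyltransferase for a protein phosphatase, averaged 17.9 CPM in cKO hearts and 15.01 CPM in Ctrl hearts (0.26, SE 0.12, adjusted p = 0.164). Arhgap17 fell by 0.33 (adjusted p = 0.0353), a call that was lost without Ctrl library 2 (adjusted p = 0.104), cKO library 1 (0.213) or cKO library 2 (0.0897), with scaling by library totals (0.103) and with DESeq2 (0.206).

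The genes with the profile most like that of Aqp8, by Euclidean distance of centred log2(CPM + 1) over the 8 heart libraries among 12099 genes, were Nppa (distance 0.820), Acta1 (0.830), Mt3 (0.893) and Tnfsf18 (1.10). Nppa encodes atrial natriuretic peptide, Acta1 skeletal alpha-actin, Mt3 a metallothionein and Tnfsf18 a cytokine of the tumour necrosis factor family. Nppa RNA averaged 803 CPM in cKO hearts and 66.4 CPM in Ctrl hearts, and Acta1 RNA 1292 CPM in cKO hearts and 188 CPM in Ctrl hearts. All 8 libraries share the same 2 genotypes. The likeness is a description of genes that are higher in cKO by similar amounts on the log2(CPM + 1) scale. The fitted log2 fold changes in RNA differed more. They were 2.78 for Acta1, 3.60 for Nppa, 4.17 for Tnfsf18 and 4.65 for Mt3, against 4.57 for Aqp8.

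**Figure D4:**
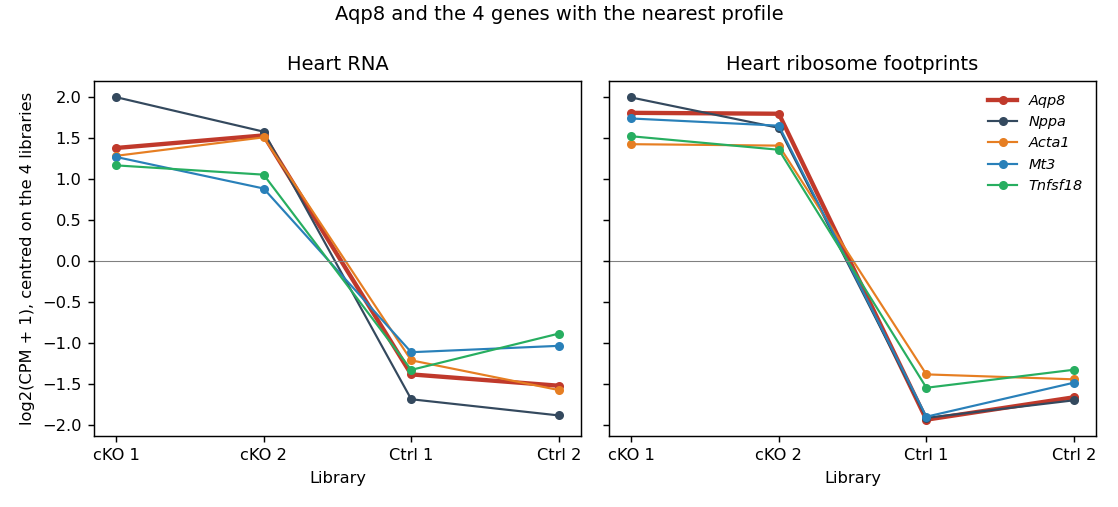
Centred log2(CPM + 1) of Aqp8 and the 4 genes nearest to it, in the 4 heart RNA and the 4 footprint libraries, cKO libraries left of Ctrl libraries. All 5 genes lie above 0 in the cKO libraries and below 0 in the Ctrl libraries; the 4 were picked for this likeness.

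The dystrophin complex, which holds Aqp4 at the membrane through syntrophins, had 13 of 14 genes tested, of which 1 rose and 2 fell in heart RNA. Of all genes tested in RNA, 8.16% rose and 6.26% fell. Sntb1, which encodes a syntrophin, averaged 34.8 ± 1.003 CPM in cKO hearts and 11.9 ± 0.455 CPM in Ctrl hearts (SD, n = 2 each; log2 fold change 1.55, SE 0.10, adjusted p = 1.0e-07). Dmd, dystrophin itself, fell by 0.44, to 46.7 CPM in cKO hearts against 63.4 CPM in Ctrl hearts. In footprints, where 9.11% of all genes rose and 7.33% fell, Sntb1 rose by 1.59 and 3 genes of the list fell. Among these, the sarcoglycan genes Sgca and Sgcd each lost the call without cKO library 1 (adjusted p = 0.121 and 0.140), Sgca also without Ctrl library 2 (0.0652) and Sgcd without cKO library 2 (0.114). The median log2 fold change of the list was -0.09 in RNA, against 0.00 for all genes tested.

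Genes of glycerol and triglyceride handling, the setting of Aqp7, were split. Of 18 tested, 3 rose and 5 fell in RNA, and 3 rose and 6 fell in footprints. Of all genes tested, 8.16% rose and 6.26% fell in RNA, and 9.11% rose and 7.33% fell in footprints. Gpd1, which interconverts glycerol 3-phosphate and dihydroxyacetone phosphate, averaged 114 CPM in cKO heart RNA and 66.8 CPM in Ctrl heart RNA (0.78, SE 0.06). Gpam, which adds the first acyl chain to glycerol 3-phosphate, rose by 0.42. Lpl, the lipase that frees fatty acids from circulating triglyceride, fell by 0.40, and the lipid droplet coat genes Plin4 and Plin5 fell by 0.31 and 0.35. Gpd1l rose by 0.25, a call lost without Ctrl library 2 (adjusted p = 0.0641) or cKO library 1 (0.154) and with DESeq2 (0.0643).

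Of 20 genes that make or remove hydrogen peroxide, which Aqp8 can pass, 6 rose and 1 fell in heart RNA. Gpx1, a glutathione peroxidase, averaged 180 ± 9.91 CPM in cKO hearts and 108 ± 1.02 CPM in Ctrl hearts (0.74, SE 0.06). Gpx4, which reduces lipid peroxides, rose by 0.68 and Txnrd1, the cytosolic thioredoxin reductase, by 0.64. Prdx3, the mitochondrial peroxiredoxin, fell by 0.40. In footprints 7 rose and 2 fell, with Txn1 higher by 0.76 and Txnrd1 by 0.62. Gpx1 footprints rose by 1.17, a value that was 0.48 when the longest frame was used. The RNA median of the list was 0.14, against 0.00 for all genes, where 8.16% rose and 6.26% fell. The footprint median was 0.029, against 0.0040 for all genes, where 9.11% rose and 7.33% fell.

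**Figure D5:**
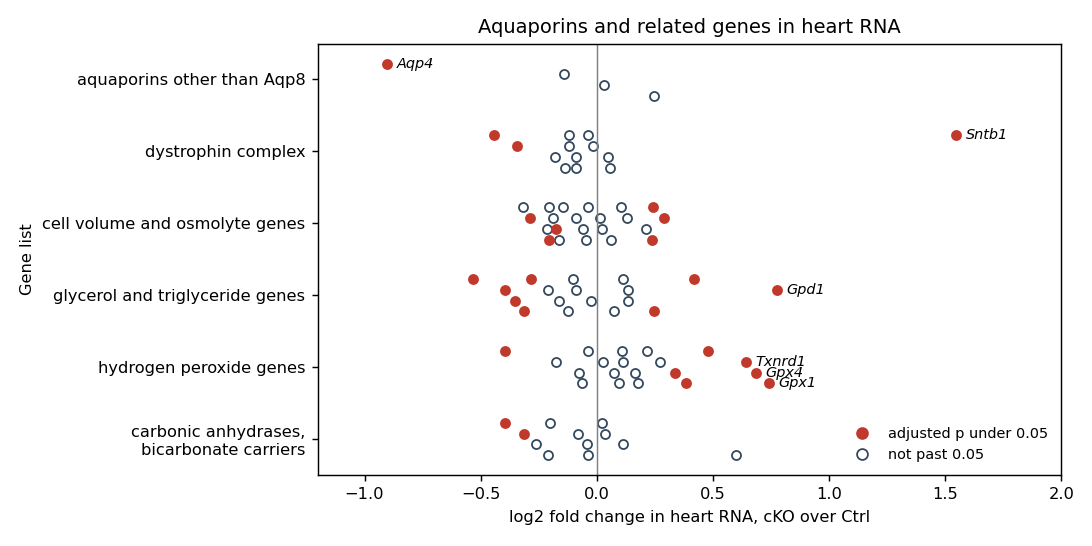
Log2 fold changes in heart RNA, cKO over Ctrl, for the 4 tested aquaporins and 5 lists of related genes; filled points passed an adjusted p of 0.05. Aqp4 is at -0.90, Sntb1 at 1.55 and Gpx1 at 0.74, and most points of each list lie within 0.5 of 0.

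Among 22 tested genes of cell volume and osmolyte control, 3 rose and 3 fell in heart RNA, and of 21 tested in footprints 2 rose and 3 fell. Of all genes, 8.16% rose and 6.26% fell in RNA, and 9.11% rose and 7.33% fell in footprints. Slc12a7, a potassium chloride cotransporter, rose by 0.29 (adjusted p = 0.00252). Of 12 tested carbonic anhydrases and bicarbonate carriers, the anion exchanger gene Slc4a3 fell by 0.40 and the membrane carbonic anhydrase gene Car14 by 0.31. In footprints 4 of 13 tested fell, among them Slc4a3 by 0.54 and Car14 by 0.46. Slc26a6, an anion exchanger gene, fell by 1.19 (adjusted p = 0.0178), a call lost without Ctrl library 2 (adjusted p = 0.170) or cKO library 2 (0.0895).

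In H9C2, Aqp8 and Aqp4 were at 0 in all 6 libraries, which allows up to 0.0341 CPM in the shallowest library, so no rise of Aqp8 was detected there, and a fall of Aqp4 could not be looked for. Aqp1 had 286, 326 and 402 counts in null cells, against 429, 425 and 414 in WT cells. In CPM this was 3.58 ± 0.650 in null cells and 4.70 ± 0.176 in WT cells (SD, n = 3 each), and all null libraries were below all WT libraries. The log2 fold change of -0.40 (SE 0.15) missed the threshold (adjusted p = 0.0881), and was -0.54 (adjusted p = 0.0439) without null library 3. The summed endothelial markers were higher in null cells, at 152 to 165 CPM, against 126 to 128 CPM in WT cells. Cdh5, Cldn5, Emcn and Robo4 were at 0. Of the 4 endothelial markers tested 1 rose and none fell, where 13.6% of all genes rose. Aqp11 had 218, 151 and 156 counts in null cells and 130, 165 and 178 in WT cells, overlapping (0.08, SE 0.21, adjusted p = 0.831). Aqp7 had 7 counts in null library 2 and none elsewhere. With edgeR, 0 of the 2 tested aquaporins were called, 1 had an unadjusted p under 0.05 and DESeq2 called 0, while 25.1% of 14801 genes were called (13.6% rose and 11.5% fell) and 42.6% had groups that did not overlap.

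Of the other aquaporins, Aqp6 had 12, 8 and 5 counts in null cells and 0, 0 and 3 in WT cells. The ratio of 7.92 had a counting interval of 2.42 to 41.0, which covers counting error only and not the spread between libraries. Aqp6 was below the filter and without a test. Mip had 0, 10 and 12 counts in null cells and 22, 0 and 0 in WT cells, and Aqp2 had 10 counts in null library 3 only. In the dystrophin complex, 4 of 13 tested genes rose and 1 fell, where 13.6% of all genes rose and 11.5% fell. Dtna, dystrobrevin alpha, had 141, 120 and 182 counts in null cells and 0 in every WT library, at least 140-fold higher against a floor of 3 counts over the group. Sgcb rose by 0.51. Skeletal muscle markers also differed, at 560 to 590 CPM in null cells and 364 to 388 CPM in WT cells, and their part in these values was not tested. Of 20 volume and osmolyte genes 7 rose and 3 fell, led by Lrrc8d, a subunit of the volume-regulated anion channel, at 12.8 ± 1.47 CPM in null cells and 5.13 ± 0.617 CPM in WT cells. Of 16 glycerol and triglyceride genes 4 rose and 2 fell, and of 19 hydrogen peroxide genes 6 rose and 3 fell, with Sod3, extracellular superoxide dismutase, at 13.8 CPM in null cells and 0.502 CPM in WT cells. Of 9 carbonic anhydrase and bicarbonate genes, 3 rose and 2 fell, and each of these 5 lost its call when at least 1 library was left out.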

How the data were processed

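The authors deposited whole-number counts per gene for heart RNA and H9C2 RNA and footprint counts per open reading frame for heart Ribo-seq, without normalization; the unit was read from the values. The submitters' processing notes name Bowtie, Bowtie2, cutadapt, DESeq2, featureCounts, HISAT2, STAR and StringTie and the builds GRCm38 and Rnor_6.0; versions, strand setting, the treatment of multiply matching reads and the tool behind each table are not given in the sources used here. Column names of the H9C2 table end like annotation files, and whether its counts derive from transcript coverage is unknown. The 4 tRNA libraries were not used here.

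For each gene the frame with most footprints was kept (98.9% of footprints). Heart RNA, footprints and H9C2 RNA were fitted apart with edgeR 4.0.16 (R 4.3.3): TMM factors, filterByExpr, quasi-likelihood test, Benjamini-Hochberg adjustment over all genes, threshold 0.05. Translational efficiency was the interaction of genotype and assay over 8 heart libraries. The SE is the absolute log2 fold change over the square root of F. Fits were tested on simulated data. Alternatives were other scalings and filters, DESeq2 1.42.0, limma 3.58.1, other frame choices, a replicate block and each library left out. Depth was 15.1 to 94.2 M (1e+06) counts per library, and no 2 replicates of a group were alike within sampling noise. Members, lists and the naming rule (members, other aquaporins with 10 or more counts, up to 3 list genes per direction by adjusted p, 5 nearest profiles) were chosen with earlier results of these data known; some genes that the rule names are not reported here.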

Additional observations from a re-analysis of the deposited data

Results flagged for a closer look

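Singled out were named genes that passed the test in heart RNA (cKO over Ctrl) and in H9C2 RNA (null over WT) with opposite signs. Their groups also had to be free of overlap in both, as for 55.0% of genes in heart RNA and 42.6% in H9C2 RNA. The difference between heart and H9C2 was not tested, and species, tissue and kind of mutation differ between them. Sntb1 was at 1.55 in heart and -0.42 in H9C2, where the call was lost without null library 1, 2 or 3 or WT library 3 (adjusted p up to 0.139). Gpx1 was at 0.74 in heart and -0.53 in H9C2. Gpd1l was at 0.25 in heart and -0.39 in H9C2; its heart call was lost without Ctrl library 2 or cKO library 1 (adjusted p up to 0.154) and with DESeq2 (0.0643). Lpl was at -0.40 in heart and 0.39 in H9C2. Slc4a3 was at -0.40 in heart and 0.31 in H9C2, the H9C2 call being lost without null library 1 or 2 or WT library 1 or 3 (adjusted p up to 0.0975).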

How the results depend on the processing

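Aqp4 kept its fall and its call in RNA and footprints in every alternative run. With 1 library left out, calls numbered 1155 to 2002 in heart RNA (2032 with all), 1148 to 1940 in footprints (2221), 2 to 11 for translational efficiency (16) and 2354 to 4455 in H9C2 (3720), with fewer samples in each fit. DESeq2 called 1080 genes in heart RNA and 40 for translational efficiency. Scaling by library totals made 77.8% of heart RNA calls and 71.4% of footprint calls rises, against 56.6% and 55.4% with TMM. With 1 library left out, the Aqp8 difference ranged from 4.35 to 4.84 in RNA, 4.45 to 5.09 in footprints and -0.42 to 0.73 for translational efficiency. The range was -0.063 to 0.13 for Aqp1 RNA, -0.34 to 0.093 for Aqp7 RNA, -0.22 to 0.18 for Aqp4 translational efficiency, -0.54 to -0.28 for H9C2 Aqp1 and -0.10 to 0.17 for H9C2 Aqp11. For translational efficiency of Acta1 it was -0.14 to 0.18, and of Nppa -0.20 to 0.22. Same-numbered libraries did not deviate together (correlations 0.04 in heart RNA, -0.002 in footprints and -0.20 to 0.16 in H9C2), so replicate numbers were taken only as names. The replicate block gave 134 calls for translational efficiency and Aqp7 footprints at -0.27 (adjusted p = 0.0424). The TMM factors within each assay, added after seeing the data, changed no call among the aquaporins. Aqp11 had too few counts for the 50-count filter. The causes were not tested. Depth limits Aqp8 in Ctrl hearts and Aqp11.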
